A study of Mus musculus with 10 samples.

Results

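The genes described here encode the PCGF and RING subunits of Polycomb repressive complex 1 (PRC1) in mouse, that is Bmi1, Pcgf1, Pcgf2, Pcgf3, Pcgf5, Pcgf6, Ring1 and Rnf2, together with Commd3, the gene next to Bmi1. They are 9 of the 22552 genes in a deposited table of RPKM values (read numbers scaled by gene length and library total), found by their symbols, and all 9 were listed. The set was chosen by gene family and on the RPKM difference between genotypes in these same libraries, in which Bmi1 and Commd3 were known to be higher in Ezh2 deletion. The differences of the 9 genes between genotypes are therefore given as a description, without p-values.

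The cerebellum was taken at E13.5 from mice labelled C57BL/6;129 for polyA RNA-seq, in 4 Ezh2 deletion and 4 wild type libraries. The deletion came from a cross of an Ezh2 flox line with a Pax7-Cre line, and a Rosa-YFP allele was bred in to guide the dissection. Cells that never expressed Pax7 would keep Ezh2, and whether the wild type embryos carried Cre or YFP is not given in the sources used here. Whether each library is an embryo of its own is not stated, so the spread between libraries, on which all errors rest, may be partly technical.

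Ezh2 is a catalytic subunit of Polycomb repressive complex 2 (PRC2), which places H3K27me3 on histones. PRC1 is the other Polycomb complex. Its core is a RING protein, Ring1 or Rnf2 (Ring1B), which attaches ubiquitin to histone H2A, paired with a PCGF protein that sets which further subunits join. Bmi1 (also called Pcgf4) and Pcgf2 (Mel18) build the canonical complexes, whose Cbx subunits bind H3K27me3, and the other PCGF proteins build variant complexes. In the mouse cerebellum Bmi1 is known for sustaining the proliferation of granule neuron progenitors, and in many tissues for silencing the cell cycle inhibitor gene Cdkn2a.

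The sequences just before the starts of Bmi1, of Commd3 and of Pcgf2, the closest relative of Bmi1, are shown because Bmi1 and Commd3 were higher in Ezh2 deletion and Pcgf2 was not called. Each is the 250 bases before the RefSeq start in build GRCm38.p6, 5′ to 3′ on the strand of the gene, with the hexamer CACGTG in capitals. The windows are chr2:18676768-18677017 on the plus strand for Bmi1, chr2:18672185-18672434 on the plus strand for Commd3 and chr11:97699649-97699898 on the minus strand for Pcgf2.
Bmi1: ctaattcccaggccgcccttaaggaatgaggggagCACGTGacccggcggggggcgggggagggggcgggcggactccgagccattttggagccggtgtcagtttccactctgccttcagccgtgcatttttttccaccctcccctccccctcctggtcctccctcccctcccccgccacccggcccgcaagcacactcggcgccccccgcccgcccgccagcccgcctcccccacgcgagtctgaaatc
Commd3: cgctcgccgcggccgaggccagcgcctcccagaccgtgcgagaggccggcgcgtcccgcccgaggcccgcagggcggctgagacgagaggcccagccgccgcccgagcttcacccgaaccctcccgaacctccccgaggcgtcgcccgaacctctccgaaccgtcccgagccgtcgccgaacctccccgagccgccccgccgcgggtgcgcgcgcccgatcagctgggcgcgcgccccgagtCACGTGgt
Pcgf2: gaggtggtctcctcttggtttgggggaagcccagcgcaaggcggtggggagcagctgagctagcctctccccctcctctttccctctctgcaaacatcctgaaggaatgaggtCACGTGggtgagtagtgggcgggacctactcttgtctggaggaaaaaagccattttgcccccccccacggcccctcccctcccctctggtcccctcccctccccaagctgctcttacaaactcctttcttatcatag

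CACGTG, the letters of a canonical E-box, stood in each of these 3 windows. It began 215 bases before the start of Bmi1, 137 bases before that of Pcgf2 and 8 bases before that of Commd3. The hexamer reads the same on both strands and was chosen after the sequences were seen. It was present in 6.02% of the 32851 windows of this length in the RefSeq table and, among the genes described here that had a window (8 of 9, with 10 windows), in these 3 only. The windows were also searched on both strands, counting overlaps, for GGGCGG, the GC box, and for the TATA box hexamer TATAAA. The GC box was found in 8 of the 10 windows, against 32.7% of all windows, and 6 times before Bmi1. TATAAA was found in 0 of the 10, against 12.4% of all windows. Of the 10 windows 3 belong to Pcgf5. G and C made up 45.6 to 78.8% of the 10 windows and 70.4% of that of Bmi1, against a median of 52.4% over all windows. A part of base content in these counts was not tested. A match describes these letters only and says nothing of binding.

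The windows before Bmi1 and Commd3 were rich in CpG. That of Commd3 held 45 CpG dinucleotides, more than 99.6% of all windows, and that of Bmi1 held 21, more than 83.7%. The window of Pcgf2 held 5, close to the median of 6 over all windows. The windows of Ring1, Rnf2, Pcgf3 and Pcgf6 held 30, 20, 16 and 14. The 3 annotated starts of Pcgf5 had 23, 4 and 28.

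Some facts of the whole set of libraries bear on every value. Total read numbers are unknown. Relative depth, estimated from the smallest steps between values of weakly expressed genes, was 1.25 to 2.12 in Ezh2 deletion and 1 to 1.34 in wild type, taking wild type 1 as 1. The targeted gene, Ezh2, was at 53.8, 48.7, 51.1 and 64.4 RPKM in Ezh2 deletion 1 to 4, against 73.6, 84.7, 78.2 and 78.2 RPKM in wild type 1 to 4, and fell to 69.3% of the wild type mean (log2 difference -0.53, SE 0.084, limma adjusted p = 0.0074). RPKM sums a whole gene, so the floxed exons cannot be seen apart. Deletion 1 to 3 held Xist RNA (54.1 to 94.5 RPKM) and almost no RNA of the Y-linked gene Ddx3y (at most 0.0219 RPKM), while deletion 4 and all wild type libraries held the reverse, with 7.92 RPKM of Ddx3y in deletion 4 and 8.31 to 9.43 RPKM in wild type. Sex markers thus split with genotype except in deletion 4. Differences are therefore also given for deletion 4 alone and for deletion 1 to 3 alone. Markers of the labelled tissue were present, with Atoh1 of the rhombic lip at 18.5 ± 3.65 RPKM in Ezh2 deletion and 14.3 ± 0.910 RPKM in wild type and Ptf1a of GABAergic progenitors at 2.94 ± 0.789 RPKM in Ezh2 deletion and 4.35 ± 0.527 RPKM in wild type (SD, n = 4 each).

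Bmi1, a PCGF subunit of canonical PRC1, was the gene of the set that differed most. Bmi1 RNA measured 67.5, 65.2, 56.3 and 65.6 RPKM in Ezh2 deletion 1 to 4, against 26.3, 30.6, 28.4 and 28.0 RPKM in wild type 1 to 4. The lowest deletion library lay far above the highest wild type library, and the libraries of each genotype stood close together. The mean of 63.6 ± 4.98 RPKM in Ezh2 deletion was 2.25 times the mean of 28.3 ± 1.76 RPKM in wild type (SD, n = 4 each). The log2 difference of 1.16 (SE 0.068), on the scale of log2(RPKM + 0.25), was nearly the same in deletion 4 alone, at 1.21 (SE 0.091), and in deletion 1 to 3, at 1.14 (SE 0.074). Bmi1 stood above 91.1% of the 14279 genes tested in Ezh2 deletion and above 75.8% in wild type, by mean RPKM. In whole tissue, more cells that express a gene and more RNA per cell cannot be told apart.

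Pcgf2, the other canonical PCGF gene, did not stand apart between genotypes. It was at 42.8, 41.4, 47.0 and 45.3 RPKM in Ezh2 deletion 1 to 4, against 43.1, 45.0, 45.8 and 46.6 RPKM in wild type 1 to 4. The ranges overlapped, and the log2 difference of -0.03 (SE 0.052) was 0.01 (SE 0.071) in deletion 4 alone. The ratio of Bmi1 to Pcgf2 RNA was 1.45 ± 0.179 in Ezh2 deletion and 0.628 ± 0.0358 in wild type (SD, n = 4 each). Every deletion library therefore held more Bmi1 than Pcgf2 RNA per length, and every wild type library held less.

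Pcgf5 showed the next largest difference among the PCGF genes, at a low level. Pcgf3 and Pcgf5 are alternative subunits of the variant complexes that contain Auts2 or Fbrs. Pcgf5 was at 4.45, 5.64, 5.43 and 6.80 RPKM in Ezh2 deletion 1 to 4, against 4.33, 3.35, 4.26 and 3.75 RPKM in wild type 1 to 4. Each deletion value exceeded the highest wild type value, but deletion 1 exceeded wild type 1 by little. The log2 difference of 0.47 (SE 0.13) was 0.76 (SE 0.166) in deletion 4 alone and 0.38 (SE 0.119) in deletion 1 to 3. Pcgf5 was not called in the fit with all libraries. Pcgf3 was the far more abundant of the pair, with 42.1, 39.03, 40.7 and 39.9 RPKM in Ezh2 deletion and 40.2, 40.8, 44.7 and 44.2 RPKM in wild type. Its ranges overlapped, with a log2 difference of -0.07 (SE 0.051). The ratio of Pcgf3 to Pcgf5 was 7.43 ± 1.51 in Ezh2 deletion and 10.9 ± 1.31 in wild type (SD, n = 4 each), and its ranges overlapped too, since deletion 1 stood at 9.46 and wild type 1 at 9.29.

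Pcgf1 and Pcgf6 are the PCGF subunits of the remaining variant complexes, Pcgf1 with Kdm2b and Bcor, and Pcgf6 with L3mbtl2, Mga and E2f6. Pcgf1 was at 8.44, 6.51, 7.78 and 7.82 RPKM in Ezh2 deletion 1 to 4, against 5.73, 6.91, 8.25 and 6.45 RPKM in wild type 1 to 4. Its libraries were mixed, and its highest wild type value exceeded 3 of the 4 deletion values. The log2 difference was 0.16 (SE 0.116). Pcgf6 measured 8.10, 8.95, 9.86 and 9.45 RPKM in Ezh2 deletion and 9.53, 9.52, 10.2 and 9.97 RPKM in wild type. Deletion 1, 2 and 4 lay below all wild type libraries and deletion 3 among them, with a log2 difference of -0.11 (SE 0.069).

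The RING genes, which encode the catalytic subunits, did not stand apart between genotypes. Rnf2 was at 51.7, 55.6, 47.8 and 49.3 RPKM in Ezh2 deletion 1 to 4, against 51.5, 56.2, 45.2 and 49.7 RPKM in wild type 1 to 4. Ring1 measured 14.5, 15.4, 17.8 and 18.1 RPKM in Ezh2 deletion and 14.8, 16.2, 17.1 and 17.1 RPKM in wild type. The ranges of both genes overlapped. The log2 differences were 0.02 (SE 0.072) for Rnf2 and 0.01 (SE 0.083) for Ring1, and both had opposite signs in deletion 4 alone and in deletion 1 to 3. For Ring1 the difference was 0.15 (SE 0.101) in deletion 4 alone and -0.04 (SE 0.082) in deletion 1 to 3. Rnf2 made up 75.6 ± 3.02% of the summed RING RNA in Ezh2 deletion and 75.6 ± 2.49% in wild type (SD, n = 4 each).

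**Figure D1:**
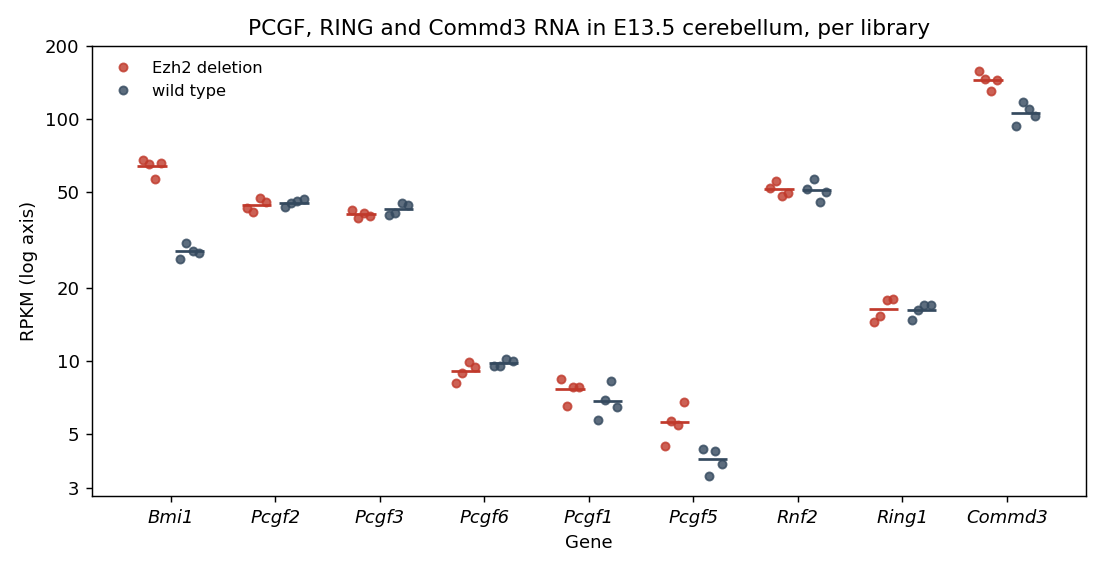
RPKM (log axis) of the PCGF genes, the RING genes and Commd3, with 1 point per library and the mean of each genotype as a line; Ezh2 deletion is red and wild type dark blue. In Bmi1, Pcgf5 and Commd3 the lowest deletion point lies above the highest wild type point, while the other 6 genes overlap.

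All 9 genes passed the level filter of a mean of 0.25 RPKM over the 8 libraries, and each lay above it in every library. In the fit across all 14279 genes (limma, adjusted p under 0.05), 2 of the 9 were higher in Ezh2 deletion (Bmi1 and Commd3) and 0 lower. Over all genes tested 3.45% were called, made up of 2.71% higher and 0.742% lower. In deletion 4 alone 1 of the 9 was called (Bmi1), against 2.26% of all genes. Values did not overlap in 3 of the 9, with Ezh2 deletion above, against 6.79% of all genes, and with Ezh2 deletion below in 0, against 5.61% of all genes. Because the genes were chosen with this contrast known, nothing is read from these shares. Over the 7 genes other than Bmi1 and Commd3 the log2 differences ran between -0.11 and 0.47 with a median of 0.01, beside a median of -0.01 over all genes tested.

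**Figure D2:**
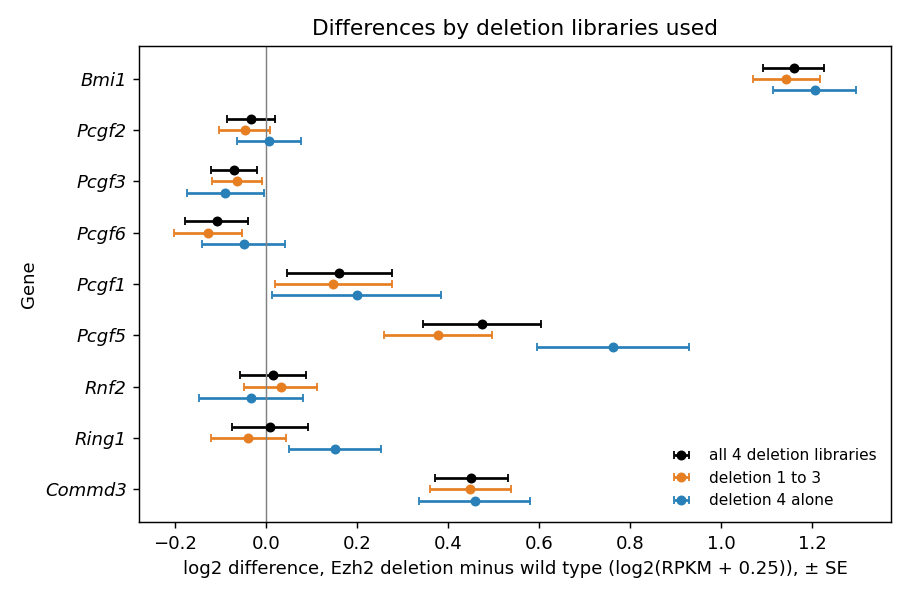
Log2 difference (Ezh2 deletion minus wild type, on log2(RPKM + 0.25)) with its SE for each gene, from all 4 deletion libraries (black), from deletion 1 to 3 (orange) and from deletion 4 alone (blue), each against the 4 wild type libraries. Bmi1 stays between 1.14 and 1.21 and Commd3 between 0.45 and 0.46, while Pcgf5 lies at 0.38 in deletion 1 to 3 and at 0.76 in deletion 4.

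The order of the genes by level differed in the place of Bmi1 alone. In Ezh2 deletion the order of mean RPKM was Commd3, Bmi1, Rnf2, Pcgf2, Pcgf3, Ring1, Pcgf6, Pcgf1 and Pcgf5. In wild type it was Commd3, Rnf2, Pcgf2, Pcgf3, Bmi1, Ring1, Pcgf6, Pcgf1 and Pcgf5. Bmi1 was thus the most abundant of the PCGF and RING genes in Ezh2 deletion, where its range lay just above that of Rnf2, and stood between Pcgf3 and Ring1 in wild type, clear of both. Neighbours whose ranges over libraries overlapped in Ezh2 deletion were Pcgf2 and Pcgf3, Pcgf6 and Pcgf1, and Pcgf1 and Pcgf5. In wild type they were Rnf2 and Pcgf2, and Pcgf2 and Pcgf3, although Pcgf2 was above Pcgf3 in each of the 8 libraries.

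Summed over the 6 PCGF genes, the RNA per length was 170.5 ± 4.21 RPKM in Ezh2 deletion and 136.5 ± 5.28 RPKM in wild type (SD, n = 4 each). The sums were 173, 167, 167 and 175 RPKM in deletion 1 to 4, against 129, 136, 142 and 139 RPKM in wild type 1 to 4, without overlap. The difference of 34.0 RPKM was close to that of Bmi1 alone, 35.3 RPKM. Without Bmi1 the other 5 genes summed to 107 ± 4.13 RPKM in Ezh2 deletion and 108 ± 4.72 RPKM in wild type, with overlapping ranges.

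The make-up of the PCGF RNA differed accordingly. Bmi1 supplied 38.9, 39.1, 33.7 and 37.5% of it in Ezh2 deletion 1 to 4, against 20.4, 22.5, 20.1 and 20.1% in wild type 1 to 4. The share of Pcgf2 was 25.9 ± 1.60% in Ezh2 deletion and 33.1 ± 0.534% in wild type, and that of Pcgf3 was 23.7 ± 0.743% in Ezh2 deletion and 31.1 ± 0.824% in wild type (SD, n = 4 each). These shares add up to a whole, so a larger share of Bmi1 lowers the others even where their RPKM is alike. Together Bmi1 and Pcgf2, the canonical PCGF genes, made up 63.2 ± 0.928% in Ezh2 deletion and 53.8 ± 1.28% in wild type. PCGF RNA per RING RNA, the ratio of the summed RPKM, was 2.53 ± 0.123 in Ezh2 deletion and 2.05 ± 0.173 in wild type. Without Bmi1 it was 1.59 ± 0.110 in Ezh2 deletion and 1.62 ± 0.155 in wild type (SD, n = 4 each). These are levels of RNA and not of protein or of assembled complexes.

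**Figure D3:**
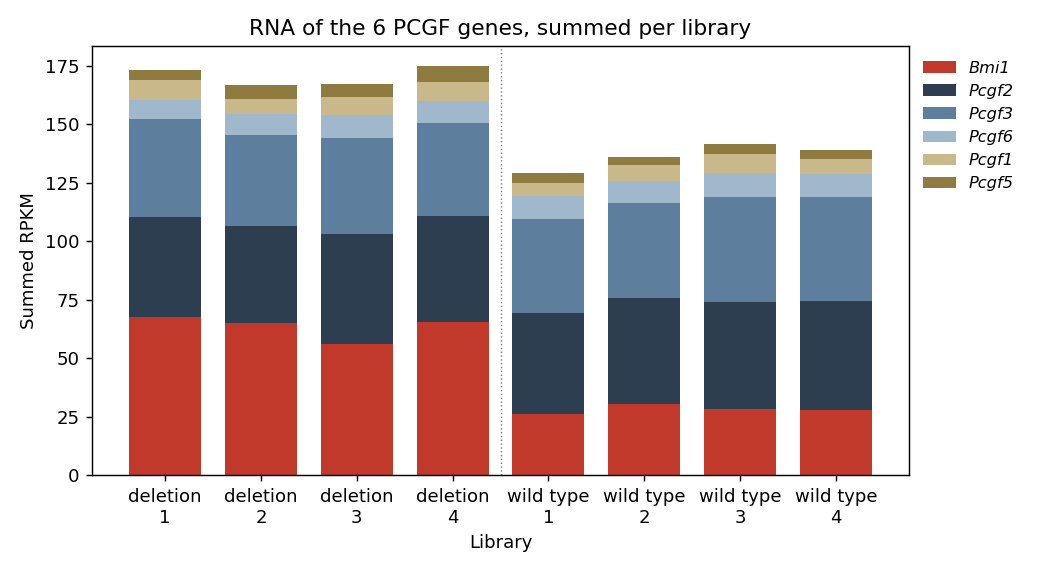
Summed RPKM of the 6 PCGF genes in each library, stacked by gene, with Ezh2 deletion 1 to 4 on the left and wild type 1 to 4 on the right. The deletion bars reach 167 to 175 RPKM and the wild type bars 129 to 142 RPKM, and the red Bmi1 segment is 56.3 to 67.5 RPKM in Ezh2 deletion and 26.3 to 30.6 RPKM in wild type.

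Commd3 encodes a COMM domain protein with roles in endosomal sorting and lies directly before Bmi1 on the same strand. In human a read-through transcript that joins the genes is annotated. Commd3 was at 157, 146, 130 and 145 RPKM in Ezh2 deletion 1 to 4, against 93.2, 117, 110 and 103 RPKM in wild type 1 to 4. The lowest deletion library lay above the highest wild type library, by less than for Bmi1. The mean was 145 ± 11.1 RPKM in Ezh2 deletion and 106 ± 10.3 RPKM in wild type (SD, n = 4 each), a log2 difference of 0.45 (SE 0.080) and a ratio of 1.37. It was 0.46 (SE 0.122) in deletion 4 alone and 0.45 (SE 0.089) in deletion 1 to 3. Commd3 was not called without wild type 4, in deletion 4 alone or with the replicate number as a block. Whether reads of one gene were counted for the other cannot be told from a value per gene, and the use of strand is not given in the sources used here.

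Bmi1 and Commd3 varied together from library to library within each genotype as well. In wild type both genes were highest in library 2, then 3, 4 and 1. In Ezh2 deletion both were highest in library 1 and lowest in library 3, and libraries 2 and 4, almost equal, were the only ones to change places. The ratio of Bmi1 to Commd3 was 0.429, 0.445, 0.433 and 0.452 in Ezh2 deletion 1 to 4, against 0.283, 0.261, 0.258 and 0.271 in wild type 1 to 4. Within a genotype this ratio varied less than either gene, with a coefficient of variation of 2.42% in Ezh2 deletion and 4.17% in wild type. For Bmi1 itself the coefficient was 7.83% in Ezh2 deletion and 6.21% in wild type, and for Commd3 it was 7.70% in Ezh2 deletion and 9.72% in wild type. The medians were 7.94% in Ezh2 deletion and 6.94% in wild type over the 12586 genes with a mean of at least 1 RPKM.

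**Figure D4:**
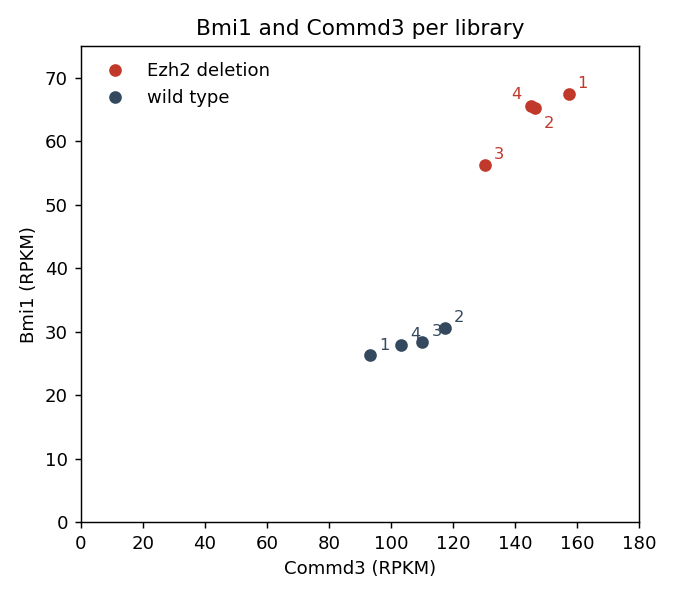
Bmi1 against Commd3 RNA in RPKM, with 1 numbered point per library; Ezh2 deletion is red and wild type dark blue. The genotypes form separate clusters, at 56.3 to 67.5 RPKM of Bmi1 in Ezh2 deletion and 26.3 to 30.6 RPKM in wild type, and in each cluster libraries with more Commd3 tend to hold more Bmi1.

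Genes whose pattern was most like that of Bmi1 were ranked by the correlation of log2(RPKM + 0.25) over the 8 libraries, among the 12585 other genes with a mean of at least 1 RPKM. The first 5 were Hoxb8 (r = 0.995), Vax2 (0.993), Hoxb3 (0.993), Hoxa7 (0.991) and Hoxb7 (0.99). All 5 are homeobox genes at or near 0 in wild type, and Hoxb8, for example, was at 8.01, 8.31, 5.83 and 7.34 RPKM in Ezh2 deletion 1 to 4, against 0.0395 RPKM or less in wild type. The 8 points share the genotype, so these values mostly restate that the genes are higher in Ezh2 deletion. Over deviations from the genotype means, r with Bmi1 was between 0.395 and 0.874 for these 5 genes. It was 0.932 for Commd3, place 23 of the 12585, where the median gene had 0.017. Of the other PRC1 genes described here, Rnf2 had 0.482, Pcgf1 0.264 and Pcgf3 0.039, and Ring1, Pcgf2, Pcgf5 and Pcgf6 were below 0. The libraries share depth and scaling, and these values are given without a test.

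The genes beyond Commd3 were followed along the chromosome. Of the 5 genes on each side of Bmi1 in the RefSeq order, only Commd3 and Spag6 were in the table. The 3 listed coding genes on each side were therefore taken, a choice made after seeing the table. They are Mllt10, Dnajc1 and Commd3 before Bmi1 and Spag6, Pip4k2a and Armc3 after it. Of the 5 other than Commd3, 0 were called (limma, adjusted p under 0.05), against 3.45% of all genes, and 2 had an unadjusted p under 0.05, against 17.7% of all genes. With 5 genes these counts do not set the neighbours apart from other genes. Mllt10, a chromatin reader, was at 15.8 ± 0.734 RPKM in Ezh2 deletion and 13.9 ± 1.42 RPKM in wild type (SD, n = 4 each; log2 difference 0.19, SE 0.078, limma adjusted p = 0.241). Spag6, a gene of motile cilia and the next listed gene after Bmi1, was at 2.07 ± 0.442 RPKM in Ezh2 deletion and 2.12 ± 0.256 RPKM in wild type (log2 difference -0.04, SE 0.146, limma adjusted p = 0.927). Pip4k2a, a lipid kinase gene, was at 14.9 ± 0.298 RPKM in Ezh2 deletion and 13.8 ± 0.349 RPKM in wild type (log2 difference 0.11, SE 0.046, limma adjusted p = 0.254). Its groups did not overlap, but the difference was small.

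**Figure D5:**
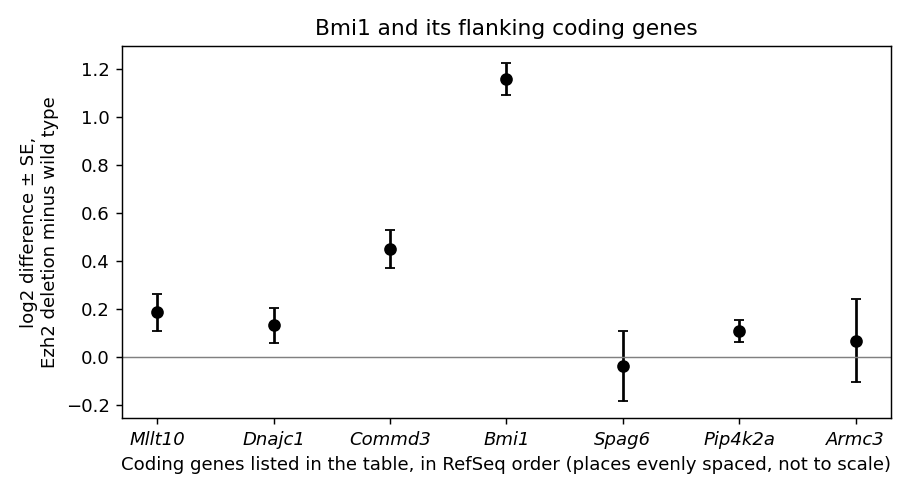
Log2 difference (Ezh2 deletion minus wild type) with its SE for Bmi1 and the 3 coding genes listed on each side of it, in RefSeq order with evenly spaced places. Bmi1 stands at 1.16 and Commd3 at 0.45, and the other 5 genes lie between -0.04 and 0.19.

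The other genes of PRC1 and its partners were looked at in the same fit. Of 38 such genes, which include the Cbx and Phc subunits, the subunits of variant complexes and the enzymes that remove ubiquitin from H2A, all 38 were tested. In limma 0 of the 38 were called at an adjusted p under 0.05, against 3.45% of all genes, a share near which a count of 0 is no result about the list. An unadjusted p under 0.05 was found for 6 of the 38, against 17.7% of all genes. Their log2 differences ran between -0.16 and 0.69 with a median of -0.004, against -0.01 over all genes tested. Closest to a call was Bcor, which joins Pcgf1 in a variant complex. It was at 22.2, 18.7, 22.8 and 22.8 RPKM in Ezh2 deletion 1 to 4, against 12.3, 16.7, 16.1 and 17.3 RPKM in wild type 1 to 4 (log2 difference 0.47, SE 0.110, limma adjusted p = 0.0506). Its values did not overlap between genotypes. Bcor passed the threshold without wild type 1 or without Ezh2 deletion 2, with quantile normalization, with median centring and with array weights. It did not pass in deletion 1 to 3, without Ezh2 deletion 1 or 3, or without wild type 2, 3 or 4. Nor did it pass with the replicate block, with other pseudocounts or filters, or without the trend and robust settings. Sex markers split with genotype except in deletion 4, and a part of sex in the difference of Bcor was not tested.

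Cdkn2a, the inhibitor gene that Bmi1 is known to silence, was also higher in Ezh2 deletion. It was at 4.38, 8.21, 3.96 and 5.15 RPKM in deletion 1 to 4, and was listed at 0.0557 RPKM in wild type 1 and at 0 in wild type 2 to 4 (limma adjusted p = 1.7e-06). Within the deletion libraries the order of Cdkn2a, highest in deletion 2, was not that of Bmi1, highest in deletion 1. This order over 4 libraries is a description, and a link between the genes was not tested.

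Markers of other cells moved with genotype in part, and their part in the values of Bmi1 and Commd3 was not tested. For these markers too, more cells and more RNA per cell cannot be told apart. Of 6 midbrain markers 5 were tested and 3 were higher (Pou4f1, Lmx1b and Barhl2) and 0 lower (limma). Over all genes 2.71% were higher and 0.742% lower. Otx2 and Gata3 overlapped between genotypes and were not called (limma adjusted p = 0.34 and 0.19). Foxa2 was at most 0.0597 RPKM in any library. The summed level of the 6 midbrain markers was 56.2 to 64.5 RPKM in Ezh2 deletion and 17.3 to 30.0 RPKM in wild type. Of 8 markers of neural progenitors 0 were higher and 1 was lower, Fabp7, at 1182 RPKM in Ezh2 deletion and 1661 RPKM in wild type, and their sum was 2014 to 2193 RPKM in Ezh2 deletion and 2443 to 2572 RPKM in wild type. The lower sum came from Fabp7: the other 7 were not called and had log2 differences of 0.01 to 0.23, all above 0. Among these 7 the libraries of Vim did not overlap, at 650.5 RPKM in Ezh2 deletion and 563 RPKM in wild type (log2 difference 0.21, limma adjusted p = 0.149), and the median over the 8 was 0.09. Summed levels overlapped for markers of proliferation (141 to 202 RPKM in Ezh2 deletion, 129 to 159 RPKM in wild type), of neurons (2682 to 3165 RPKM in Ezh2 deletion, 2829 to 3020 RPKM in wild type), of red blood cells (262 to 575 RPKM in Ezh2 deletion, 320 to 384 RPKM in wild type) and of vessels, microglia and meninges (25.02 to 47.9 RPKM in Ezh2 deletion, 25.3 to 34.7 RPKM in wild type), and of these 4 lists 0 genes were called (limma, adjusted p under 0.05). In these lists the libraries of Hba-a1 and Csf1r did not overlap between genotypes. Hba-a1 was lower, at 14.9 RPKM in Ezh2 deletion and 32.3 RPKM in wild type (limma adjusted p = 0.138). Csf1r was higher, at 3.51 RPKM in Ezh2 deletion and 2.55 RPKM in wild type (limma adjusted p = 0.122). The rhombic lip list (311 to 386 RPKM in Ezh2 deletion, 332 to 361 RPKM in wild type) gave 0 calls among 6 genes. The GABAergic list (176 to 231 RPKM in Ezh2 deletion, 216 to 282 RPKM in wild type) gave 1 higher, Pax2, and 1 lower, Skor2, of 6. Its median log2 difference was -0.27, and Pax2 alone was above 0. Ptf1a was lower without overlap but not called (log2 difference -0.56, limma adjusted p = 0.125). Lhx1, Lhx5 and Gad1 overlapped, with log2 differences of -0.36, -0.19 and -0.03.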

How the data were processed

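RNA-seq of cerebellum was available as 4 Ezh2 deletion and 4 wild type libraries, grouped and numbered by their sample titles. Values from the H3K27me3 ChIP-seq samples were not used here. The authors deposited RPKM values for 22552 genes. Bowtie, TopHat, SICER and Cuffdiff, and build mm9, are named per the submitters' processing notes, with no roles or versions. Which annotation was counted, and how strand and multiply matching reads were handled, is unknown here, so genes with near-identical copies or overlapping neighbours are uncertain. Total depth is unknown. After scaling by relative depth, 75.8% of 11932 values of genes with a mean under 0.1 RPKM lay within 0.05 of a whole multiple of the smallest value of the gene. An exact 0 can be a failed estimate, since Tuba1a was listed at 0 throughout; 0 of the 9 genes described had a 0.

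RPKM values are not counts, so genes with a mean of at least 0.25 RPKM (14279) were tested in limma (version 3.58.1, under R 4.3.3 with statmod 1.5.0) after the transform log2(RPKM + 0.25). Variances were moderated by eBayes, robustly and with an intensity trend. Tests were two-sided, and p-values were adjusted by Benjamini-Hochberg across all genes, with a threshold of 0.05. In simulated data of 14279 genes, of which 200 were changed, 88% of the 2-fold changes put in were called, and false calls made up 2.26%. The simulated noise was independent between genes and libraries, without sex or depth differences. These rates therefore need not hold for the real libraries, and the 88% does not cover smaller changes. Other pseudocounts, filters, scalings and thresholds, array weights, a replicate block and subsets of libraries were tried. The genes and lists were chosen with earlier results of these data known. Named are the 9 genes, Ezh2, Cdkn2a, called genes of the other lists, genes flanking Bmi1, the 5 genes most like Bmi1, and marker genes; Bcor was chosen after its values were seen. Sequences are from RefSeq (GRCm38.p6). Proteins were not analysed here.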

Additional observations from a re-analysis of the deposited data

Results flagged for a closer look

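The share of Bmi1 in the RNA of the 6 PCGF genes measured 22.5% in wild type 2, against 20.1, 20.1 and 20.4% in the other wild type libraries, so that 1 library stood apart from the rest by 0.873 of the range. It lay on the side of the Ezh2 deletion libraries but far below their lowest share of 33.7%. Cdkn2a was at 0.0557 RPKM in wild type 1 and listed at 0 in the other wild type libraries. For normally distributed values, chance alone sets apart about 1 in 20 groups of 4 by this measure, and many groups were searched. The rate does not apply to Cdkn2a in wild type, where all values but 1 are 0.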

How the results depend on the processing

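Of 19 alternatives for the log2 differences of the 9 genes, 4 leave a difference as it is by construction (both filters, the replicate block, and no trend or robust setting), and deletion 1 to 3 repeats the fit without deletion 4. Of the 126 differences from the other 14, 124 moved by less than the spread between libraries. Leaving out 1 of 4 libraries cannot move a difference by more than this spread. The differences with 1 library left out, which are among the 126, therefore say nothing of stability by this measure. Those that moved were Pcgf5 and Ring1 in Ezh2 deletion 4 alone (0.76 and 0.15). With 1 library left out Bmi1 stayed between 1.12 and 1.22 and Commd3 between 0.39 and 0.50. The ratio of Bmi1 to Commd3, Ezh2 deletion minus wild type, differed by 0.171, and by 0.184 in deletion 4 alone. The count of 2 called among the 9 was 1 (Bmi1) in deletion 4 alone, at an adjusted p under 0.01 and with a replicate block, and 1 to 3 with 1 library left out, the lowest without wild type 4 and the highest, with Pcgf5 added, without Ezh2 deletion 1. Of the 38 other PRC1 genes 0 were called, but 1 (Bcor) with quantile normalization, median centring or array weights, 2 (Bcor and Cbx8) at an adjusted p under 0.10, and 0 to 1 with 1 library left out. The flanking genes gave 0 calls under the alternatives run, with Armc3 not tested at a filter of 1 RPKM.

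Over all genes 387 were higher and 106 lower. With 1 library left out these counts ran between 218 and 350 higher and between 40 and 101 lower. Higher genes numbered 204 in deletion 4 alone, 173 at an adjusted p under 0.01 and 614 under 0.10. Lower genes numbered 181 with array weights, 28 under 0.01 and 248 under 0.10. No pairing by replicate number was seen, although weak pairing could escape this measure. Same-numbered libraries correlated with r between 0.003 and 0.087 over deviations from the genotype means, and differently numbered ones between -0.23 and 0.195. Of 8 libraries 2 correlated best with their own number. With the number as a replicate block 300 genes were higher and 53 lower. Causes of these shifts were not tested.

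In deletion 4 alone, where the single library is assumed to vary like wild type, Ezh2 had a log2 difference of -0.29 and did not pass (limma adjusted p = 0.146, against 0.0074 with all libraries).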
